A study of Mus musculus with 24 samples.

Results

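The *Igf2r*-*Airn* imprinted domain of mouse chromosome 17 was examined in embryos without maternal *Zfp57* and embryos without any *Zfp57*. ZFP57 is a zinc finger protein that maintains DNA methylation at imprinting control regions. Its members were the rows of the deposited gene table with the symbols *Igf2r*, *Airn*, *Slc22a2* and *Slc22a3*, which were 4 of 34745 genes. The study asked which imprinted genes depend on ZFP57. RNA-seq was performed with 12 E13.5 embryos, 1 library per embryo, and their whole bodies were used. The 6 M-Z+ embryos had the genotype *Zfp57* -/+ and the 6 M-Z- embryos had the genotype *Zfp57* -/-, both on a hybrid 129/DBA background. In the matings of the study, the *Zfp57* -/- mothers were 129 mice and the *Zfp57* +/- fathers were DBA* mice. Both groups therefore lacked maternal *Zfp57* and received the deleted allele from the mother. They differed in the allele from the father, which was wild type in M-Z+ embryos and deleted in M-Z- embryos. In the study, the DBA* mice were obtained by backcrossing 129 mice with the deleted allele to DBA mice. Paternal sequence of 129 origin linked to the deleted allele may thus also differ between the groups. Its part cannot be told apart from that of *Zfp57* here, and whether it reaches the domain was not tested. The sex and litter of the embryos are not given in the labels used here. Embryos of the M+Z+ genotype and the bisulfite sequencing of the series were not analysed here, so no value below is set against embryos with maternal *Zfp57*.

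In this domain a noncoding RNA and protein-coding genes are imprinted in opposite ways. *Airn* is transcribed from the paternal chromosome, starts inside *Igf2r* on the opposite strand and silences *Igf2r* on the same chromosome, whereas the maternal chromosome carries DNA methylation at the *Airn* promoter and expresses *Igf2r*. In the placenta *Airn* also silences *Slc22a2* and *Slc22a3*, and in neurons *Igf2r* is known to be expressed from both alleles.

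The counted reads summed to between 12347383 and 19216288 in the M-Z+ libraries and to between 12005145 and 14617373 in the M-Z- libraries. CPM, the unit of most levels below, is the count of a gene after libraries of different size and composition were brought to the same scale. The length slope of a library, which says how steeply log2 CPM climbs with log2 length over its genes, separated 3 libraries from the other 9. It was 0.66 to 0.67 in M-Z+ replicate 6 and M-Z- replicates 5 and 6, and 0.44 to 0.57 in the other 9 libraries. The mean slope was 0.537 ± 0.077 (SD, n = 6) in M-Z+ embryos and 0.588 ± 0.0606 (SD, n = 6) in M-Z- embryos (two-sided exact permutation p = 0.195). The 3 libraries came from both genotypes, and the members, their ratio and the gene lists are given below with and without them. Single genes of the lists are given with all 12 libraries unless said otherwise. No technical batch is named in the labels.

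*Zfp57* itself is on the same chromosome, at chr17:37001163-37010635. Its level was 19.1, 23.7 and 40.8 CPM for the lowest, median and highest M-Z+ embryo, and 17.8, 26.5 and 27.8 CPM for the M-Z- embryos. The groups overlapped, and counts per gene do not show which exons the reads came from, so they do not test the deletion. M-Z- over M-Z+ embryos gave a log2 fold change of −0.15 with a standard error of 0.18 (edgeR adjusted p = 0.828). The labels were therefore examined with imprinted genes of other domains, chosen after their values were seen. *Rtl1* had 164 to 260 counts in M-Z+ embryos and 0 to 2 counts in M-Z- embryos, so each library was on the side of its label.

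The members span 440 kb on GRCm38, in the order *Slc22a3*, *Slc22a2*, *Igf2r* and *Airn*. *Slc22a3* (ENSMUSG00000023828) was listed at chr17:12419972-12507704 and *Slc22a2* (ENSMUSG00000040966) at chr17:12584189-12628465. *Igf2r* (ENSMUSG00000023830) was listed at chr17:12682406-12769664 and *Airn* (ENSMUSG00000078247) at chr17:12741311-12860122. *Igf2r* and *Airn* share 28354 bp, which is 32.5% of the span of *Igf2r*, on opposite strands. *Airn* also shares 19044 bp with *Mas1*. For the deposited counts it is not given whether strand was used. Reads of *Igf2r* and *Airn* from the shared stretch, those of unspliced RNA included, can therefore not be told apart.

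**Figure D1:**
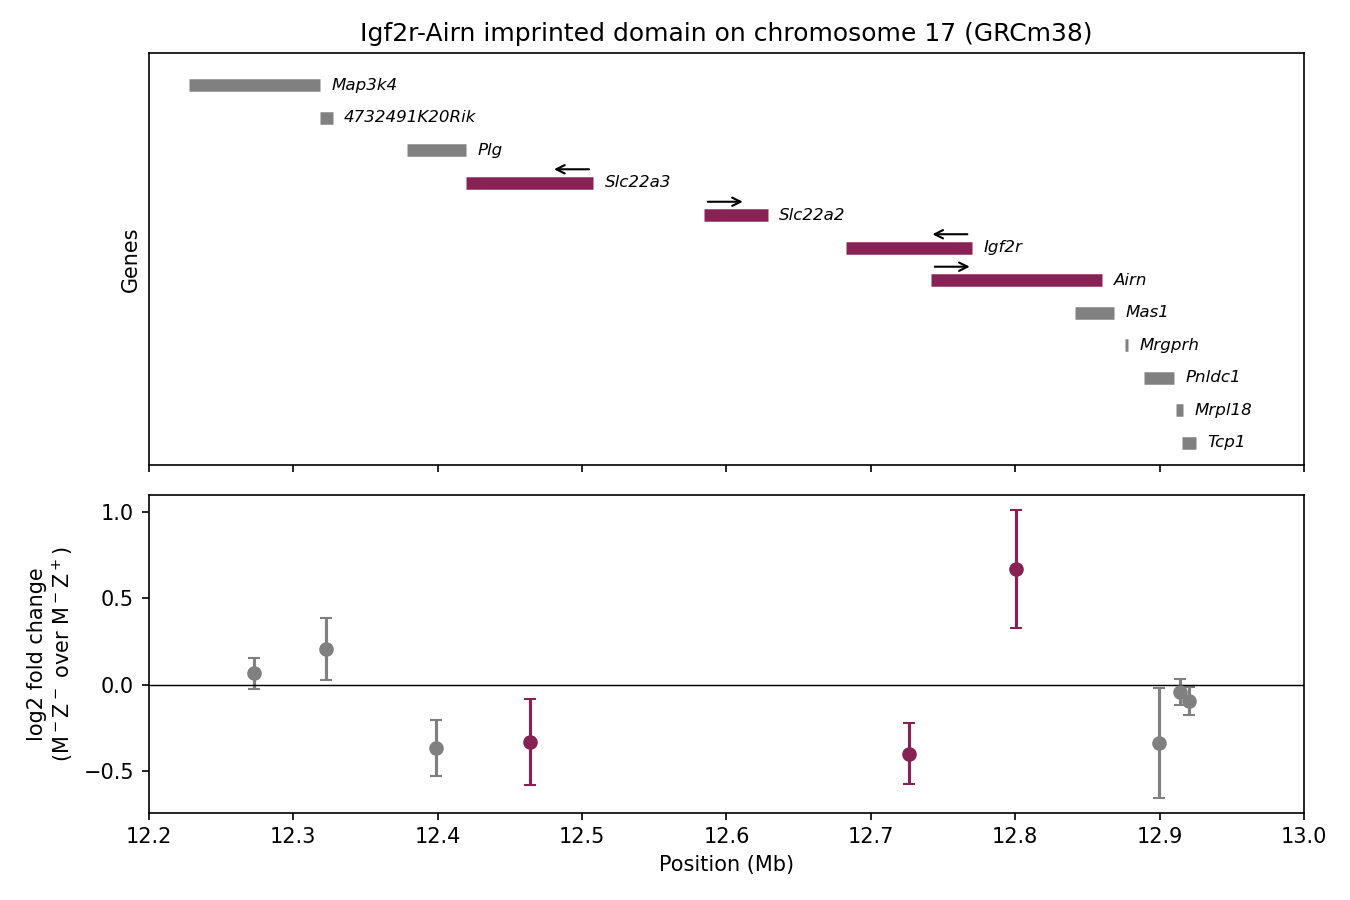
The upper panel shows the spans of the members (purple, with arrows for the direction of transcription) and of the neighbouring genes named in the text (grey) along chromosome 17 in Mb, and the lower panel shows the log2 fold change of M-Z- over M-Z+ embryos with its standard error for each tested gene. *Airn* stands at 0.67 and *Igf2r* at −0.40, and no gene in the map passed the test.

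Of the 4 members, 3 passed the filter on low counts and were tested, whereas *Slc22a2* was not. A gene was called at an adjusted p below 0.05 with a log2 fold change beyond 0.5. edgeR called 0 of the 3 tested members, beside 0.0811% of all 16026 tested genes, and DESeq2 also called 0, beside 0.231%. At an unadjusted p below 0.05, edgeR listed 1 member, *Igf2r*, beside 6.7% of all genes, and DESeq2 listed 2, *Igf2r* and *Airn*, beside 6.98%. Groups that do not overlap in CPM were found for 0 of the 3 members and for 0.574% of all genes. These shares of all genes are the background for so few members, and nothing about the domain is read from them.

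*Igf2r*, the receptor that clears IGF2 from the cell surface and carries enzymes with a mannose 6-phosphate tag to the lysosome, was lower in most M-Z- embryos. Its level was 345, 434 and 588 CPM for the lowest, median and highest M-Z+ embryo, and 248, 309 and 560 CPM for the M-Z- embryos. The first 4 M-Z- replicates and replicate 6 lay below every M-Z+ embryo, whereas M-Z- replicate 5 lay above all M-Z+ embryos except replicate 6. M-Z+ embryos averaged 452 ± 81.9 CPM and M-Z- embryos 343 ± 110 CPM (SD, n = 6 each). Their log2 fold change was −0.40 with a standard error of 0.18, which did not pass the test (edgeR unadjusted p = 0.0426, adjusted p = 0.744). Fewer cells that express a gene and less RNA per cell cannot be told apart in whole embryos.

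The difference of *Igf2r* was larger where the length slope was taken into account. In the 9 libraries with a lower slope, *Igf2r* was 345 to 491 CPM in 5 M-Z+ embryos and 248 to 314 CPM in 4 M-Z- embryos, with no overlap, as for 2.95% of all genes in these libraries. The embryo that overlapped most with all 12 libraries, M-Z- replicate 5, is among the 3 left out. The means were 424 ± 52.7 CPM (SD, n = 5) and 292 ± 29.5 CPM (SD, n = 4), and the two-sided exact permutation p of 0.0159 is the smallest that 5 against 4 embryos allow. In these 9 libraries the log2 fold change was −0.55 (edgeR adjusted p = 0.118). In the 3 other libraries, *Igf2r* was 588 CPM in the M-Z+ embryo and 330 and 560 CPM in the M-Z- embryos. The log2 fold change of *Igf2r* was −0.60 with the length slope as a covariate (edgeR adjusted p = 0.115) and also −0.60 without M-Z- replicate 5 (edgeR adjusted p = 0.219). Over all alternatives the adjusted p of *Igf2r* ran from 0.115 to 0.985. The choice of the 9 libraries was made after the data were seen.

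*Airn*, the noncoding RNA of the domain, had more reads in most M-Z- embryos. Its level was 7.87, 11.6 and 26.5 CPM for the lowest, median and highest M-Z+ embryo, and 13.5, 15.6 and 40.4 CPM for the M-Z- embryos. The highest level of each genotype was in a library with a steep length slope, and the genotypes overlapped through M-Z+ replicates 2 and 6. M-Z+ embryos averaged 13.7 ± 6.79 CPM and M-Z- embryos 21.8 ± 11.4 CPM (SD, n = 6 each). For *Airn* the log2 fold change was 0.67 with a standard error of 0.34, which did not pass the test (edgeR unadjusted p = 0.071, adjusted p = 0.749).

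The size of the *Airn* difference depended on the 3 libraries with a steep slope. In the other 9 libraries, *Airn* was 7.87 to 15.4 CPM in 5 M-Z+ embryos and 13.5 to 16.2 CPM in 4 M-Z- embryos, and M-Z+ replicate 2 lay among the M-Z- embryos. The means were 11.1 ± 2.93 CPM (SD, n = 5) and 14.7 ± 1.17 CPM (SD, n = 4), with a two-sided exact permutation p of 0.0794. In these 9 libraries the log2 fold change was 0.40 (edgeR adjusted p = 0.637). In the 3 steep libraries, *Airn* was 26.5 CPM in the M-Z+ embryo and 31.7 and 40.4 CPM in the M-Z- embryos. With the length slope as a covariate it was 0.20 (edgeR adjusted p = 0.575), and with 2 surrogate variables it was 0.36 (edgeR adjusted p = 0.322). It was 0.39 without M-Z- replicate 6 and 0.97 without M-Z+ replicate 6, and the adjusted p of *Airn* ran from 0.263 to 0.985 over all alternatives.

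**Figure D2:**
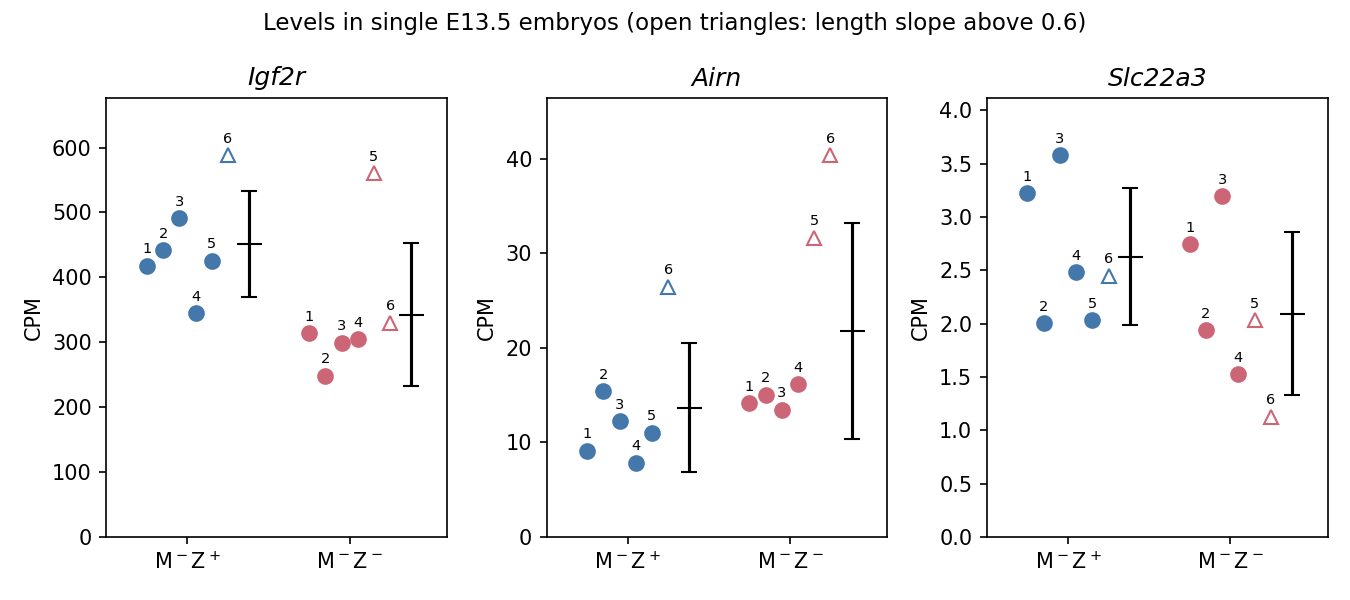
Each point is the level of *Igf2r*, *Airn* or *Slc22a3* in CPM in 1 embryo, numbered by replicate, with M-Z+ embryos in blue and M-Z- embryos in red, and bars give the mean and SD of 6 embryos. Open triangles mark the 3 libraries with a length slope above 0.6, which hold the highest *Airn* levels, from 26.5 to 40.4 CPM, and the *Igf2r* level of 560 CPM in M-Z- replicate 5.

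The reads of the 2 antisense partners were then compared within each library, where the scaling of libraries plays no part. Of the counts on both genes together, the share of *Airn* was 2.13%, 2.48% and 4.31% for the lowest, median and highest M-Z+ embryo, and 4.3%, 5.19% and 10.9% for the M-Z- embryos. The share was at least as high in each M-Z- embryo as in each M-Z+ embryo except for M-Z+ replicate 6, which was level with M-Z- replicates 1 and 3. These 3 shares were 4.31% (95% Wilson interval 3.95 to 4.69%), 4.31% (3.72 to 4.98%) and 4.3% (3.69 to 5%), so they do not differ beyond counting error. The highest share, 10.9% in M-Z- replicate 6, had an interval of 10.1 to 11.8%.

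The mean log2 ratio of *Airn* to *Igf2r* counts was −5.15 ± 0.41 (SD, n = 6) in M-Z+ embryos and −4.07 ± 0.54 (SD, n = 6) in M-Z- embryos. The ratio was 1.08 higher in M-Z- embryos on the log2 scale, which is 2.11-fold (two-sided exact permutation p = 0.00433, not adjusted for other tests). It was the higher of the pair in 35 of 36 pairs of an M-Z- and an M-Z+ embryo. Per length, *Airn* reached 5.97 ± 1.84 TPM for 100 TPM of *Igf2r* in M-Z+ embryos (SD, n = 6) and 13.02 ± 6.01 in M-Z- embryos (SD, n = 6). TPM are counts per length of the gene, scaled to the same sum in each library.

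The ratio was also higher in M-Z- embryos within each set of libraries. In the 9 libraries with a lower slope, the share of *Airn* was 2.13 to 3.37% in 5 M-Z+ embryos and 4.3 to 5.71% in 4 M-Z- embryos. The ratio differed by 0.97 there, and the two-sided exact permutation p of 0.0159 is the smallest that 5 against 4 embryos allow. The length slopes of these 9 libraries were 0.437 to 0.567 in M-Z+ and 0.533 to 0.56 in M-Z- embryos. Leaving out the steep libraries thus did not make the slopes of the genotypes equal. In the 3 libraries with a steep slope, the share was 4.31% in M-Z+ replicate 6, 5.35% in M-Z- replicate 5 and 10.9% in M-Z- replicate 6, which are too few embryos for a test. With the length slope regressed out of the ratio over all 12 libraries, the difference was 0.69 (two-sided exact permutation p = 0.00649). The difference was thus smaller with the slope taken out, and its p stayed below 0.05.

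**Figure D3:**
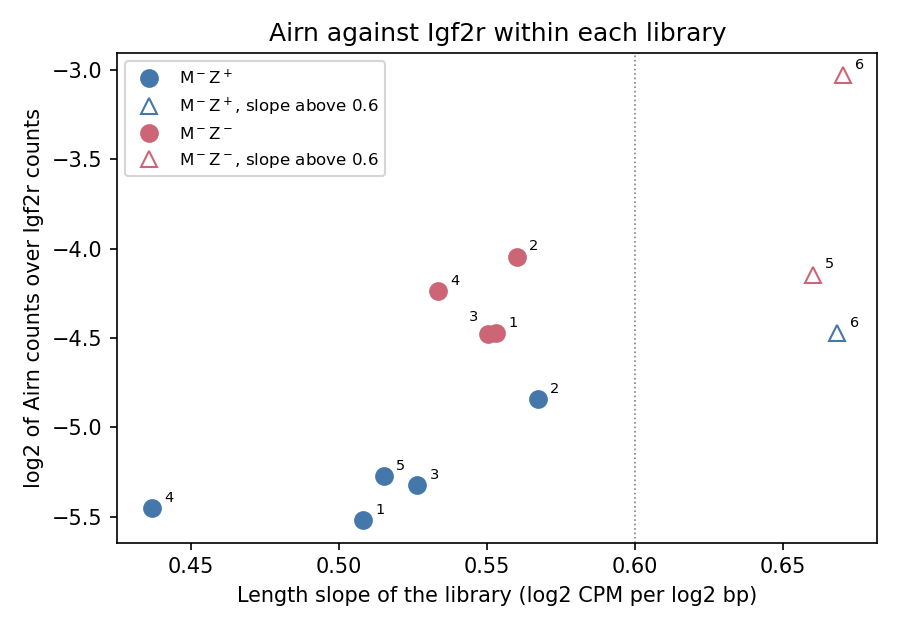
Each point is 1 embryo, numbered by replicate, with the length slope of its library on the horizontal axis and the log2 of *Airn* over *Igf2r* counts on the vertical axis. To the left of the dotted line at a slope of 0.6, the 4 M-Z- embryos (red) lie from −4.48 to −4.04, above the 5 M-Z+ embryos (blue), which lie from −5.52 to −4.84.

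It was then asked whether *Airn* and *Igf2r* varied together between embryos. Over all 12 embryos the Pearson r of their log2 CPM was 0.24 (permutation p = 0.457). Since the 3 steep libraries formed a cluster of their own in *Airn* level, no relation is read from this value. In the other 9 embryos, log2 CPM of *Airn* and *Igf2r* had a Pearson r of −0.34 (exact permutation p = 0.36) and a Spearman rho of −0.32 (exact permutation p = 0.41). The r was −0.53 over the 7 embryos left without the 2 farthest in *Airn*. No relation passed the test in these 9 embryos, which are of both genotypes. In the 6 M-Z+ embryos, r was 0.91 (exact permutation p = 0.0194) and rho was 0.94 (exact permutation p = 0.0167), but r was 0.45 over the 4 left without the 2 farthest. In the 6 M-Z- embryos, r was 0.61 (exact permutation p = 0.308) and rho was 0.66 (exact permutation p = 0.175), and r was −0.19 over the 4 left. The values within a genotype thus rested on the embryos with the most or the least *Airn*.

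*Airn* followed the length slope also over the 9 libraries with a lower slope, with both genotypes pooled. Its Pearson r with the slope was 0.89 (exact permutation p = 0.00175) and its rho was 0.83 (exact permutation p = 0.00827), with an r of 0.80 over the 7 embryos left without the 2 farthest in slope. For *Igf2r* and the slope, r was −0.20 (exact permutation p = 0.653) and rho was −0.27 (exact permutation p = 0.493), with an r of −0.83 over the 7 left. Of the 5 relations examined within sets of embryos, the Benjamini–Hochberg adjusted p was 0.00874 for *Airn* with the slope and 0.0486 for *Airn* with *Igf2r* in M-Z+ embryos. It was 0.45 for the other 2 relations of *Airn* with *Igf2r* and 0.653 for *Igf2r* with the slope. Among the M-Z+ embryos of these 9, *Airn* ran from 7.87 CPM at the lowest slope, 0.437, to 15.4 CPM at the highest, 0.567. Among the M-Z- embryos, replicate 4 had the lowest slope, 0.533, and the highest *Airn*, 16.2 CPM. The relation of *Airn* with the slope was not tested within a genotype.

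*Slc22a3*, which encodes an organic cation transporter, was expressed at a low level. Its level was 2.00, 2.46 and 3.58 CPM for the lowest, median and highest M-Z+ embryo, and 1.13, 1.98 and 3.19 CPM for the M-Z- embryos. The groups overlapped over most of their range, and only M-Z- replicates 2, 4 and 6 lay below every M-Z+ embryo. These levels rest on 16 to 47 counts per library. The log2 fold change was −0.33 with a standard error of 0.25 (edgeR adjusted p = 0.759). It was −0.19 in the 9 libraries with a lower slope (edgeR adjusted p = 0.842) and −0.21 without M-Z- replicate 6, and the adjusted p ran from 0.425 to 0.985 over the alternatives planned and added.

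*Slc22a2*, which encodes another transporter of the same family, had 7 counts over all 12 libraries. No M-Z+ library held more than 2 of its reads, and they summed to 5, whereas no M-Z- library held more than 1, and they summed to 2. Reads were present in 5 of the 12 libraries. A floor of 3 counts corresponds to 0.156 to 0.25 CPM before TMM scaling in these libraries, and no library reached it, so no fold change is given. A difference in *Slc22a2* was not detectable at this depth.

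On the scale of TPM, which allows levels of different genes to be compared, the order was *Igf2r*, *Airn*, *Slc22a3* and *Slc22a2*. *Igf2r* had 163 ± 38.6 TPM in M-Z+ embryos and 127 ± 44.3 TPM in M-Z- embryos (SD, n = 6 each). *Airn* had 10.3 ± 5.75 TPM in M-Z+ embryos and 16.6 ± 9.29 TPM in M-Z- embryos (SD, n = 6 each). *Slc22a3* had 2.62 ± 0.639 TPM in M-Z+ embryos and 2.13 ± 0.755 TPM in M-Z- embryos (SD, n = 6 each). Neighbours in this order did not overlap in any embryo, with 89.5 to 229 TPM for *Igf2r*, 5.37 to 31.8 TPM for *Airn*, 1.21 to 3.59 TPM for *Slc22a3* and 0 to 0.209 TPM for *Slc22a2*.

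The promoters of *Igf2r* and *Airn* are shown because the ratio of their reads differed between the genotypes and because methylation of CpG sites in this domain is what distinguishes the parental alleles. All 4 members were matched in the RefSeq promoter table, which holds 32851 windows from 250 bases before to 50 bases after a start on GRCm38.p6. The *Igf2r* window is chr17:12769657-12769956 on the minus strand and the *Airn* window is chr17:12741061-12741360 on the plus strand, with CG in capitals.
*Igf2r*: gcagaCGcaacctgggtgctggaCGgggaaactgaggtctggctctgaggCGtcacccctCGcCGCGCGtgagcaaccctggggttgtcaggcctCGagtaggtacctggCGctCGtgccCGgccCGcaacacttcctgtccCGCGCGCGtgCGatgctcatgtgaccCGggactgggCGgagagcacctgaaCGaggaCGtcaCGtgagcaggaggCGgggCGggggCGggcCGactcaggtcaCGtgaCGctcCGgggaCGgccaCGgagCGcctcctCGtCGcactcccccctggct
*Airn*: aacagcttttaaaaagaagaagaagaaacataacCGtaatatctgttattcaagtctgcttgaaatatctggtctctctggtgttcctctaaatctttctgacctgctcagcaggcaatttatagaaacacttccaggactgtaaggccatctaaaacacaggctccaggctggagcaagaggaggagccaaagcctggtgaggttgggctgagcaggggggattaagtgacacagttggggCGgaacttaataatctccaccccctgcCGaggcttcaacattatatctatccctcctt

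The *Igf2r* window holds 34 CG and the *Airn* window holds 3, with a GC content of 70.7% and 45.7%. These windows cover only the 300 bases around a start. The imprinting control region inside *Igf2r* was not analysed as a whole, so the CG and motif counts given here are not counts for that region. The median over all promoter windows was 7 CG, and 92.3% of them hold fewer than *Igf2r* and 23.3% fewer than *Airn*. The *Slc22a3* and *Slc22a2* windows hold 5 and 8 CG. The letters TGCCGC, the motif ZFP57 is known to bind when its CpG is methylated, were searched on both strands, where the reverse reads GCGGCA. They are in 11.6% of all windows and in 1 of the 4 members' windows, that of *Slc22a2* at chr17:12583939-12584238 on the plus strand, where they begin at base 55 and overlap 1 CG. The stretch around the match is printed with the motif in capitals.
*Slc22a2*: gattgtttgtaaTGCCGCtgtgaagcagag

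The domain was then compared with the genes around it. Of the 32 other genes within 1 Mb of the members, 15 were tested, and edgeR called 0 of them, with 2 at an unadjusted p below 0.05, beside 0.0811% and 6.7% of all genes. DESeq2 called 0 of them. Their median log2 fold change was −0.06, beside −0.01 for all tested genes. In the 9 libraries with a lower slope, 14 were tested, and edgeR called 0 of them, with 0 at an unadjusted p below 0.05 and a median of −0.06. Of all 16052 genes tested in these 9 libraries, edgeR called 16, which is 0.0997%, with 7.84% at an unadjusted p below 0.05 and a median of −0.02. *Mas1* had 39 counts over all libraries and *Mrgprh* had 25, and neither was tested.

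On the side of *Slc22a3*, the nearest tested gene was *Plg*, which encodes plasminogen of the liver. M-Z+ embryos averaged 78.1 ± 13.4 CPM of *Plg* and M-Z- embryos 60.6 ± 15.2 CPM (SD, n = 6 each), with overlap, and a log2 fold change of −0.37 with a standard error of 0.16 (edgeR unadjusted p = 0.0391, adjusted p = 0.744). It was −0.26 in the 9 libraries with a lower slope and −0.22 with the length slope as a covariate. The noncoding gene *4732491K20Rik* had a log2 fold change of 0.21 and *Map3k4*, a kinase gene, had 0.065, with standard errors of 0.18 and 0.089. On the side of *Airn*, *Pnldc1*, a gene of piRNA trimming, had −0.34, *Mrpl18*, which encodes a mitochondrial ribosomal protein, had −0.042 and *Tcp1*, which encodes a chaperonin subunit, had −0.095. Their standard errors were 0.32, 0.076 and 0.080. With 1 embryo left out, *Pnldc1* ran from −0.51 (M-Z+ replicate 2) to −0.19 (M-Z+ replicate 6), and *4732491K20Rik* was 0.12 without M-Z- replicate 1. The second gene at an unadjusted p below 0.05 was *Gm16049*, with a log2 fold change of 0.78 and a standard error of 0.34 (edgeR adjusted p = 0.744), which rests on 129 counts in all. It was 0.51 with the length slope as a covariate, and it did not pass the filter on low counts in the 9 libraries with a lower slope.

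Hepatocyte markers were set beside *Plg*. The 8 markers summed to 4469, 6133 and 8511 TPM for the lowest, median and highest M-Z+ embryo, and to 3381, 5710 and 7976 TPM for the M-Z- embryos. None of the 8 was called or at 0, and the most abundant was *Alb*, with 2474 TPM. The sums of the genotypes overlapped over most of their range. Of the 8 markers, 6 had a log2 fold change below 0 and 2 above, from −0.38 to 0.35, with a median of −0.16. The part of liver content in the *Plg* values was not tested.

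Genes that work with the IGF2R protein were examined next. Of 12 genes that make the mannose 6-phosphate tag or sort its receptors, edgeR called 0, with 0 at an unadjusted p below 0.05 and a median log2 fold change of 0.05. *Vps26a*, a retromer subunit, had the largest value, 0.40 with a standard error of 0.25, followed by 0.19 for the adaptor gene *Gga3*, with a standard error of 0.15. With 1 embryo left out, *Vps26a* ran from 0.27 (M-Z- replicate 1) to 0.63 (M-Z+ replicate 3), and it was 0.21 with 2 surrogate variables. *Gga3* was 0.086 without M-Z+ replicate 1 and 0.0505 with the length slope as a covariate. edgeR called 0 of the 12 in the 9 libraries with a lower slope, with 0 at an unadjusted p below 0.05 and a median of 0.04. The most abundant was *Vps35*, another retromer subunit, with 226 TPM. *M6pr*, the smaller mannose 6-phosphate receptor, averaged 91.9 ± 10.04 CPM for M-Z+ and 96.0 ± 6.08 CPM for M-Z- embryos (SD, n = 6 each), with a log2 fold change of 0.062 and a standard error of 0.080. With 1 embryo left out, *M6pr* was between 0.0175 (M-Z+ replicate 6) and 0.10 (M-Z+ replicate 3). *M6pr* and *Igf2* were named for their roles after their values were seen.

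Of 32 lysosomal enzymes and activators that the receptors carry, edgeR called 0, with 0 at an unadjusted p below 0.05, and their median was −0.03. *Idua*, which encodes alpha-L-iduronidase, had a log2 fold change of −0.29 with a standard error of 0.19, and *Manba*, which encodes beta-mannosidase, had 0.20 with a standard error of 0.096. The most abundant was *Psap*, the precursor of the saposins, with 422 TPM. The summed level of the list was 2567 ± 192 TPM in M-Z+ embryos and 2582 ± 217 TPM in M-Z- embryos (SD, n = 6 each), a difference within the spread between embryos (two-sided exact permutation p = 0.881). *Idua* was −0.19 without M-Z- replicate 4. In the 9 libraries with a lower slope, 0 of the 32 were called and 1 had an unadjusted p below 0.05, beside 7.84% of all genes.

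Of 15 genes of the IGF2 system, edgeR called 0, with 1 at an unadjusted p below 0.05, beside 6.7% of all genes. A log2 fold change above 0 was found for 12 of the 15, beside 7733 of all 16026 genes. The median was 0.12. *Igf2*, the ligand that the receptor clears, had 515, 1718 and 2066 CPM for the lowest, median and highest M-Z+ embryo, and 1409, 1613 and 1863 CPM for the M-Z- embryos. The M-Z+ embryos spread more widely than the M-Z- embryos, and their range covered all of them. The log2 fold change of *Igf2* was 0.18 with a standard error of 0.30 (edgeR adjusted p = 0.879). It was −0.0019 without M-Z+ replicate 5, 0.27 in the 9 libraries with a lower slope and 0.36 with the replicate number as a block. *Igf1r*, the receptor through which IGF2 signals, had 0.36 with a standard error of 0.27, and *Igfbp4*, a binding protein of the ligands, had 0.25 with a standard error of 0.19. *Igf1r* ran from 0.21 (M-Z+ replicate 4) to 0.65 (M-Z+ replicate 6) with 1 embryo left out, and it was 0.086 with the length slope as a covariate. The value of *Igfbp4* was 0.12 and 0.13 with M-Z- replicates 3 and 1 left out in turn, and 0.44 in the 9 libraries with a lower slope. The most abundant gene, *Igfbp5*, had 607 TPM and was the 1 gene at an unadjusted p below 0.05, with a log2 fold change of 0.16 and a standard error of 0.064 (edgeR adjusted p = 0.744). edgeR called 0 of the 15 in the 9 libraries with a lower slope, with 4 at an unadjusted p below 0.05 and a median of 0.16, beside 7.84% and −0.02 for all genes in these libraries.

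The summed level of these 15 genes was 1877 ± 254 TPM in M-Z+ embryos and 2123 ± 69.1 TPM in M-Z- embryos (SD, n = 6 each). The M-Z- embryos lay at 2043 to 2248 TPM and the M-Z+ embryos at 1507 to 2194 TPM, with M-Z+ replicates 3 and 6 among the M-Z- embryos and the other 4 below all of them. The two-sided exact permutation p was 0.0368, and it was 0.249 after Benjamini–Hochberg adjustment over the 12 lists summed, so the difference did not pass the test.

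Of 6 other genes of organic cation transport, 4 were tested and 0 called, with a median of −0.16. Of the 4, 1 was at an unadjusted p below 0.05, beside 6.7% of all genes. *Slc47a1*, an exporter of cations, averaged 2.42 ± 0.700 CPM for M-Z+ and 1.57 ± 0.574 CPM for M-Z- embryos (SD, n = 6 each). Its log2 fold change was −0.62 with a standard error of 0.28 (edgeR unadjusted p = 0.0422, adjusted p = 0.744). *Slc29a4*, a plasma membrane transporter of monoamines and the most abundant of the list with 32.5 TPM, had −0.20 with a standard error of 0.10, −0.11 without M-Z+ replicate 5 and −0.052 with 2 surrogate variables. In the 9 libraries with a lower slope, 0 of the 4 were called, with 1 at an unadjusted p below 0.05, beside 7.84% of all genes. *Slc47a1* was −0.80 in these libraries.

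Of 9 repressors tied to the domain, among them subunits of the Polycomb complexes and the H3K9 methyltransferases, edgeR called 0, with 0 at an unadjusted p below 0.05 and a median of 0.04. *Smchd1*, a chromosomal protein of imprinted clusters, had 0.27 with a standard error of 0.15, and *Ring1*, a Polycomb subunit, had −0.097 with a standard error of 0.098. *Hnrnpk*, which binds RNA, was the most abundant, with 99.7 TPM. With the length slope as a covariate, *Smchd1* was 0.069 and *Ring1* was −0.0064. None of the 9 genes was called in the 9 libraries with a lower slope, 0 had an unadjusted p below 0.05 and the median was −0.01. By DESeq2, 0 of the 72 tested genes of these 5 lists were called, beside 0.231% of all genes. An unadjusted p below 0.05 was found for 2 of the 72, beside 6.98% of all genes.

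Markers were used to see which tissues with a special state of the domain were in the libraries. The 8 markers of trophoblast and placenta, where *Slc22a2* and *Slc22a3* are imprinted, had 11 counts in sum over all 12 libraries, with at most 4 for 1 gene and 3 of the 8 at 0, and none was tested. The most abundant of them, *Prl3b1*, had 0.0549 TPM. The embryo libraries thus held next to no reads of placental genes.

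Neurons, in which *Igf2r* is known to be expressed from both alleles, were present in all libraries. The 7 neuronal markers summed to 1177, 1409 and 1647 TPM for the lowest, median and highest M-Z+ embryo, and to 1213, 1239 and 1369 TPM for the M-Z- embryos. The M-Z- embryos lay within the range of the M-Z+ embryos, but only M-Z+ replicate 3 lay below them, and replicates 1, 5 and 6 lay above all of them. The two-sided exact permutation p of the sum was 0.0606, or 0.249 adjusted over the 12 lists summed. None of the 7 was called or at 0, the most abundant was *Tubb3* with 970 TPM, and 2 had an unadjusted p below 0.05, beside 6.7% of all genes. Of the 7, 5 had a log2 fold change below 0 and 2 above, the highest at 0.10, and the median was −0.14. *Stmn2* had a log2 fold change of −0.21 with a standard error of 0.065 (edgeR adjusted p = 0.664) and *Tubb3* had −0.24 with a standard error of 0.10 (edgeR adjusted p = 0.744), or −0.066 with 2 surrogate variables. *Stmn2* did not overlap between the genotypes, with 246 to 278 CPM in M-Z+ and 205 to 242 CPM in M-Z- embryos, as for 0.574% of all genes. The marker farthest from 0 was *Map2*, at −0.31 with a standard error of 0.26. None of the 7 was called in the 9 libraries with a lower slope, and 3 had an unadjusted p below 0.05, beside 7.84% of all genes. The part of neuronal content in the *Igf2r* values was not tested.

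Other tissues were represented in both genotypes, and 0 of their markers were called by edgeR, with all libraries or the 9 of a lower slope, or by DESeq2. Of 5 erythroid markers, 5 were tested and 1 had an unadjusted p below 0.05, beside 6.7% of all genes. All 5 had a log2 fold change below 0, with a median of −0.23, and the most abundant was *Hba-a1* with 4971 TPM. Of 5 skeletal muscle markers, 5 were tested and 0 had such a p, and the most abundant was *Acta1* with 432 TPM. Of 6 kidney markers, 4 were tested and 1 had such a p, and the most abundant was *Six2* with 41.3 TPM.

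Finally, the genes whose log2 CPM followed *Igf2r* and *Airn* most closely over the 12 embryos were listed by Pearson r, as a description of these libraries. For *Igf2r* they were *Lat2* (r = 0.898), *Fn3krp* (0.886), *Dag1* (0.879), *Lime1* (0.868) and *Kel* (0.866). In the 9 libraries with a lower slope, their r with *Igf2r* was 0.85 to 0.89. For *Airn* they were *Neb* (r = 0.976), *Cdk13* (0.976), *Nf1* (0.976), *Zbtb21* (0.975) and *Ash1l* (0.974), with 0.90 to 0.99 in those 9 libraries. The log2 CPM of these 5 genes had an r of 0.97 to 0.99 with the length slope, and their lengths in the table were 7081 to 28669 bp, beside a median of 5124 bp over the tested genes. The genes most like *Airn* thus share the length slope of the libraries, whereas those most like *Igf2r* had an r of 0.12 to 0.49 with it.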

How the data were processed

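RNA was extracted from whole E13.5 embryos with Trizol, and libraries were made with the VAHTS Universal V6 kit. The authors deposited a table of 34745 genes with raw counts, and FPKM values that follow from those counts. The latter served here only to obtain gene lengths, and TPM was then computed from counts and lengths. The submitters' processing notes name HISAT2 2.0.4 and mm10. For the deposited counts, the sources used here do not give the counting program, the annotation or whether strand was used. The paper names featureCounts, a strand option and an annotation for RNA-seq reads mapped with STAR to another genome build than mm10. It is not stated that these apply to the deposited counts.

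Counts were tested with edgeR 4.0.16 in R 4.3.3 (TMM, filterByExpr, glmQLFit and glmQLFTest) over 16026 genes, with genotype as the 1 term and Benjamini–Hochberg adjustment over all of them. Standard errors were derived from the log2 fold change and the square root of F. Alternatives used DESeq2 1.42.0, sva 3.50.0 (2 surrogate variables), RLE normalization, other filters, the length slope, the replicate number as a block and each embryo left out. The fits were tested on simulated counts. Log2 CPM for correlations used a prior count of 2. The design set the correlation of *Igf2r* and *Airn* over all 12 embryos, and it is also given within sets of embryos because 3 libraries stood apart. Permutation tests used Python 3.11.15 and scipy 1.17.1, over all divisions or pairings, or 100000 random pairings over 12 embryos. Intervals and floors cover counting error only.

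The members and the lists were chosen with earlier results of these data known. Named genes were the members, *Zfp57*, the 3 nearest tested genes on each side, the 5 genes most like *Igf2r* and *Airn*, and from each of the 5 lists of related genes the 2 with the largest change and the 1 with the highest TPM. Of the tissue markers, the 1 with the highest TPM was named, and *Stmn2* and *Map2* were added after their values were seen. Fits and correlations without libraries of a steep length slope were added after the data were seen.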

Additional observations from a re-analysis of the deposited data

Results flagged for a closer look

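Among 10 groups of 6 embryos, in which the levels of *Igf2r*, *Airn*, *Slc22a3* and *Zfp57* and the ratio of *Airn* to *Igf2r* were examined, 2 had 1 embryo far from the others. Chance gives about 1 in 20 groups, or 0.5 here.

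M-Z- replicate 5 held *Igf2r* at 560.5 CPM, whereas the remaining 5 embryos of its genotype lay at 248 to 330 CPM, and the gap to the nearest embryo was 0.738 of the whole range. The same library had 1 count of *Rtl1* and 881 counts of *Dlk1*, where M-Z+ embryos had at least 164 and 4719, so it was on the side of its label for these imprinted genes, chosen after their values were seen. Its length slope was 0.66.

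The log2 ratio of *Airn* to *Igf2r* counts was −3.03 in M-Z- replicate 6, against −4.48 to −4.04 in the other 5 M-Z- embryos, and the gap was 0.701 of the range. The length slope of this library was 0.67, and that of M-Z- replicate 5, whose log2 ratio was −4.15, was 0.66. Without M-Z- replicate 6 the ratio still differed between the genotypes, by 0.87 (two-sided exact permutation p = 0.00866).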

How the results depend on the processing

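*Igf2r*, *Airn* and *Slc22a3* kept their direction and were not called under any alternative run, and the number of members called was 0 in each. The ranges with 1 embryo left out were −0.60 to −0.31 for *Igf2r*, 0.39 to 0.97 for *Airn* and −0.49 to −0.21 for *Slc22a3*. The difference in the log2 ratio of *Airn* to *Igf2r* ranged from 0.87 to 1.21 with 1 embryo left out, and its p stayed below 0.05 under the alternatives run, from 0.00216 with 0.5 added to each count to 0.0312 with same-numbered embryos paired (exact permutation tests). Each of these p values is the smallest that its own test allows, so they do not rank the alternatives. *Slc22a2* could be fitted only without a filter, at counts under the floor, so its fold change is not given, and *Slc22a3* was removed by a mean of at least 50 counts.

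The labels do not say whether replicate numbers pair the embryos. The correlation of same-numbered deviations was 0.0202 for number 2 and 0.103 to 0.639 for the others. The best-matching M-Z- embryo had the same number for M-Z+ replicates 3, 5 and 6, and another number for replicates 1, 2 and 4. These values do not settle whether the embryos were paired. With the replicate number as a block, the log2 fold change was −0.43 for *Igf2r* (edgeR adjusted p = 0.338), 0.65 for *Airn* (0.327) and −0.36 for *Slc22a3* (0.425), and 0 members were called.

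The correlation of *Igf2r* and *Airn* was −0.34 without the 3 steep libraries and 0.91 within M-Z+ embryos. Over all 12 embryos it was 0.24, but neither that (permutation p = 0.457) nor the value without the steep libraries (exact permutation p = 0.36) passed the test. Of the single genes that were followed through the alternatives, which leaves out, among others, *Map2*, the genes named for their TPM alone and those most like *Igf2r* or *Airn*, 5 changed sign in at least 1 of them, at small values. *Map3k4* was −0.012 with the length slope and −0.012 without the steep libraries, *Mrpl18* was 0.020 with the length slope and *Tcp1* was 0.0091 with surrogate variables. *Zfp57* ranged from −0.24 to 0.0042 and *Igf2* from −0.0019 to 0.31 with 1 embryo left out. The cause of these changes was not tested. Among the members, *Slc22a2* with 7 counts and *Slc22a3* with 399 were the most limited by depth.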
